A study of Mus musculus with 18 samples.

Results

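Metallothioneins are small, cysteine-rich proteins that bind zinc and copper, and the group described here holds the metallothionein genes together with the zinc-sensing transcription factor Mtf1 and the zinc exporter Slc30a1. Members were taken by gene symbol from the platform annotation: Mt1, Mt2, Mt3, Mt4, Mtf1 and Slc30a1. Of these 6 genes, 5 were named on the arrays, each by 1 spot, out of 15095 named genes and 21765 spots in all. No spot carried the symbol Mt2, and its strain ratio is not reported here. The members were chosen by name, with their strain ratios on these same arrays already known, so those ratios are a description and carry no p-value.

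DBA/2J mice were compared with C57BL/6J mice, both inbred strains, on 6 arrays each of whole brain, kidney and liver RNA, 18 in all. On every array RNA from DBA/2J mice, labelled with Alexa Fluor 647, was hybridised together with RNA from C57BL/6J mice, labelled with Alexa Fluor 555, and the dyes were not swapped. The labels give every RNA as a pool, made from 10 animals in brain and in kidney and from 9 in liver, and the same names stand on the 6 arrays of a tissue. The arrays are taken as repeat hybridisations of the same pools, so their spread, and any p-value from it, does not contain the spread between mice, and a dye effect that is constant for a spot cannot be told apart from strain. No treatment, age or sex is given in the sources used here.

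When zinc enters a cell, MTF1 binds it and switches on genes that carry metal response elements in their promoters. Mt1 and Mt2 are the widely expressed targets, strongest in liver and kidney and in astrocytes of the brain, and glucocorticoids and inflammation also induce them. Slc30a1, which encodes the plasma membrane exporter ZnT1, is another target of MTF1. Mt3 is known mainly from brain, and Mt4 from stratified squamous epithelia such as skin and tongue.

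Windows around the annotated starts were searched for the element that MTF1 binds. RefSeq promoters (build GRCm38.p6, 250 bases before to 50 after the annotated start) were matched for 6 of 6 members. The core of the metal response element was searched as TGCACNC or TGCGCNC on both strands. The Mt1 window held 3 cores, that of Mt2 4, that of Slc30a1 2, those of Mt3 and Mt4 1 each and that of Mtf1 0. Among 32851 promoter windows of the same length, 25.7% held at least 1 core, 7.11% at least 2 and 1.97% at least 3. No core in these 6 windows overlapped another motif searched. The windows of Mt1 (chr8:94178839-94179138), which had the largest strain ratio of the members, of Mt3 (chr8:94152357-94152656), which had the largest tissue difference in intensity, and of Slc30a1 (chr1:191906531-191906830), the exporter, are shown 5′ to 3′. All are written along the plus strand, on which the genes lie, and capitals mark the cores, which in Slc30a1 read in the opposite direction (the strand of the match is minus).
Mt1: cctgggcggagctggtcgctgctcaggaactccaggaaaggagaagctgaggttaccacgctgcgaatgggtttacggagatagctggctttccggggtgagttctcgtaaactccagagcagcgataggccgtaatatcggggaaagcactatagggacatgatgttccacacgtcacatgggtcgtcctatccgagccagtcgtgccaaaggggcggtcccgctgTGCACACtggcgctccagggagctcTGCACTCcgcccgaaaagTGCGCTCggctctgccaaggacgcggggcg
Mt3: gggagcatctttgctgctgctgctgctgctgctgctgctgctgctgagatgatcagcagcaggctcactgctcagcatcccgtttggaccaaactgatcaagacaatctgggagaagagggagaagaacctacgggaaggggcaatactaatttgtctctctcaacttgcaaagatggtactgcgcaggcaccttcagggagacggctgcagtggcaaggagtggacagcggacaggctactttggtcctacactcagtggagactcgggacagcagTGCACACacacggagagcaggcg
Slc30a1: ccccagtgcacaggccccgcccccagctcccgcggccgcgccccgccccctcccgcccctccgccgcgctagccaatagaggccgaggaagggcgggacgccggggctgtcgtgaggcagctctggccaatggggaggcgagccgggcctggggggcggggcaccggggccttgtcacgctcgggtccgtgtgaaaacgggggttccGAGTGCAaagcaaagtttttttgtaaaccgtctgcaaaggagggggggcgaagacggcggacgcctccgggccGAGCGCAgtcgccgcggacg
In the Mt1 window the 3 cores began 23 bases before and 2 and 20 bases after the annotated start. The counts depend on the annotated start, which may not be the start used in these tissues, and cores outside a window were not counted. They therefore do not rank the members by their metal response elements. A match describes these letters only, and the strain of the reference sequence is C57BL/6J.

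Values are log2 ratios after print-tip loess, which removes the dependence of a ratio on spot intensity within each of 48 blocks of an array, and positive values stand for a higher level in DBA/2J. That direction is likely rather than stated, and rests on the dye order in the labels. Glo1, which is duplicated in DBA/2J, was positive throughout (mean ± SD of 6 arrays 0.64 ± 0.13 for brain, 0.79 ± 0.34 for kidney, 0.91 ± 0.15 for liver). Intensities of marker spots followed the labelled tissue for brain and liver, where 9 of 9 measured markers of each were brightest in their own tissue. Of 8 measured kidney markers 5 were brightest in kidney, among them Kap and Umod, and the spot named Aqp2 was brightest in liver, which leaves some spot names in doubt. The SD between the arrays of a tissue had a median over features of 0.179 for kidney, 0.183 for liver and 0.197 for brain.

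Mt1, a main zinc-buffering metallothionein, had the largest strain ratio of the members and was 3.74-fold higher in DBA/2J liver (1.90 ± 0.27, mean log2 ratio ± SD, n = 6 arrays). The 6 liver arrays gave 1.63 at the lowest, 1.82 at the median and 2.38 at the highest. All 6 were above 0, as for 12.5% of features in liver. Every liver array lay above every brain and every kidney array, where the highest single values were 0.67 and -0.04. Of 15095 named genes 0.0265% had as large an absolute mean ratio in liver, Mt1 included. Ratios of all liver arrays lay above those of all kidney arrays for 4.40% of features and above those of all brain arrays for 1.67%. As deposited, the liver values of Mt1 exceeded their array's median by 2.02, 1.64, 1.87, 1.89, 2.87 and 1.83 on arrays 1 to 6. On liver array 5, the highest, the deposited ratio was, in lowest terms, that of the whole numbers 2147 for DBA/2J and 503 for C57BL/6J, before any correction for the dyes. The liver mean lay between 1.81 and 1.96 with any 1 array left out, and between 1.90 and 2.02 under the 4 ways of normalising that were compared. Mt1 and Mt2 are close in sequence, and whether the spot also measured Mt2 was not tested.

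In the other tissues the Mt1 ratio was far smaller and depended on the normalisation. In brain it averaged 0.33 ± 0.29, with -0.09 at the lowest, 0.31 at the median and 0.67 at the highest, so that 5 of 6 arrays lay above 0. Without loess, with each array only centred on its median, the brain mean was 0.61. In kidney it averaged -0.24 ± 0.26, with -0.74 at the lowest, -0.16 at the median and -0.04 at the highest. All kidney arrays lay below 0 after loess, as for 18.1% of features, but the mean was 0.66 without loess, so no direction is given for Mt1 in kidney. Without kidney array 3, which was the lowest, the kidney mean was -0.14. The Mt1 spot was among the brightest of its arrays, at a median percentile of 98.9 (brain), 97.1 (liver) and 96.7 (kidney). On the kidney arrays deposited ratios rose with intensity (averaged over the arrays of the tissue), with a correlation across spots of 0.610 to 0.709. On brain arrays 1, 3 and 4 this correlation was 0.577, 0.594 and 0.474, and on the other brain arrays 0.127 or less. Liver arrays ran from -0.152 to 0.318.

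**Figure D1:**
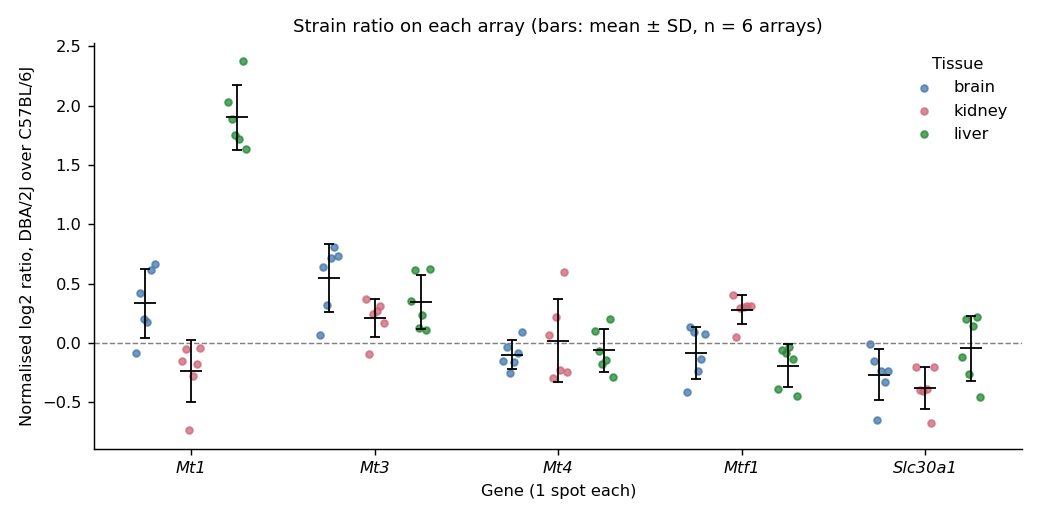
Normalised log2 ratio of DBA/2J over C57BL/6J (vertical axis) of the 5 measured members on each of 18 arrays, coloured by tissue, with bars for the mean ± SD of 6 arrays. The 6 liver values of Mt1 lie between 1.63 and 2.38, above all other values in the plot, while Mt4 scatters around 0.

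Mt3, the brain-enriched metallothionein that binds zinc and copper in neurons and astrocytes, had its highest ratio in brain (0.55 ± 0.29), a 1.46-fold difference. The 6 brain arrays gave 0.07 at the lowest, 0.68 at the median and 0.81 at the highest. Array 1 was the low one and the other brain arrays lay at 0.32 or more, and 8.91% of features were above 0 on all brain arrays. In liver Mt3 averaged 0.34 ± 0.23, with 0.11 at the lowest, 0.29 at the median and 0.62 at the highest. In kidney it averaged 0.21 ± 0.16, with -0.10 at the lowest, 0.26 at the median and 0.37 at the highest. The ratios of the 3 tissues overlapped, and their order from brain over liver to kidney is not separated by the spread between arrays. The mean stayed above 0 in each tissue under the 4 ways of normalising, at 0.51 to 0.70 in brain, 0.22 to 0.37 in liver and 0.12 to 0.40 in kidney. The spot lay at a median intensity percentile of 95.8 in brain, 72.2 in kidney and only 44.5 in liver. Whether its liver signal stands above background was not tested.

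Mt4, the metallothionein of stratified epithelia, had mean ratios smaller than the SD between arrays in all 3 tissues. It averaged -0.10 ± 0.12 in brain, 0.02 ± 0.35 in kidney and -0.06 ± 0.18 in liver. Its arrays fell on both sides of 0 in each tissue, from -0.25 to 0.09 in brain, -0.29 to 0.60 in kidney and -0.28 to 0.21 in liver. Without loess the kidney mean was -0.32 and passed the adjusted threshold of 0.05. The spot was dimmer than the array median, at median percentiles of 37.9, 27.7 and 32.2.

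Mtf1, the zinc-sensing factor, had a ratio of 0.28 ± 0.12 in kidney, where the arrays gave 0.05 at the lowest, 0.31 at the median and 0.41 at the highest. In liver it averaged -0.19 ± 0.18, with -0.45 at the lowest, -0.11 at the median and -0.03 at the highest. All kidney arrays were thus above 0, as for 16.8% of features, and all liver arrays below it, as for 12.6%. Every kidney array lay above every liver array, an order that 4.55% of features shared. These signs hold after loess: as deposited and centred on the array median, kidney array 2 stood at -0.18 and liver arrays ran from -0.47 to 0.19. In brain Mtf1 averaged -0.08 ± 0.22, with 3 arrays on either side of 0. The kidney mean was 0.501 with 1 loess curve per array and 0.44 with spot intensities left unrestored. The liver mean was -0.03 with 1 loess curve per array and -0.07 without loess.

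After loess Slc30a1, the zinc exporter, stood below 0 on all arrays of kidney and brain, where 18.1% and 9.36% of features did so. In kidney it averaged -0.38 ± 0.18, a 1.30-fold difference, with -0.68 at the lowest, -0.39 at the median and -0.20 at the highest. In brain it averaged -0.27 ± 0.22, with -0.65 at the lowest, -0.24 at the median and -0.0045 at the highest. The brain mean was -0.15 without loess, where array 1 stood at 0.07, and -0.17 with 1 loess curve per array. In liver it averaged -0.05 ± 0.28, with 3 arrays above and 3 below 0. The kidney mean of Slc30a1 shrank to -0.04 without loess, to -0.17 with 1 loess curve per array and to -0.15 with intensities left unrestored. Without loess kidney arrays 1, 3 and 6 stood above 0, at 0.20, 0.06 and 0.11. Neither the size nor the direction of Slc30a1 in kidney is therefore settled.

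Counted against the adjusted threshold of 0.05 of the fit to all 20218 features, 2 of 5 members passed in brain, with Mt1 and Mt3 higher, where 14.1% of all features passed (7.60% higher and 6.53% lower). In kidney 4 of 5 passed, where 39.7% of all features did (19.9% higher and 19.8% lower), with Mt3 and Mtf1 higher and Mt1 and Slc30a1 lower. In liver 2 of 5 passed, Mt1 and Mt3, both higher, where 22.9% of all features did (10.7% higher and 12.1% lower). Nothing is read from these counts, since the members were chosen with this contrast known. The calls of Mt1 in brain ended without any 1 of arrays 2 to 6 (means from 0.27 to 0.37). In kidney those of Mt1 ended without array 1, 3, 4 or 5 (-0.25, -0.14, -0.23 and -0.25) and those of Mt3 without array 1, 3, 4, 5 or 6 (0.18 to 0.22). With 1 loess curve per array the kidney calls of Mt1, Mt3 and Slc30a1 ended as well, and that of Slc30a1 also without loess. With intensities left unrestored those of Mt1 and Slc30a1 ended. The liver call of Mt3 ended without loess (0.22). In brain Slc30a1 passed without array 1 (-0.32).

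**Figure D2:**
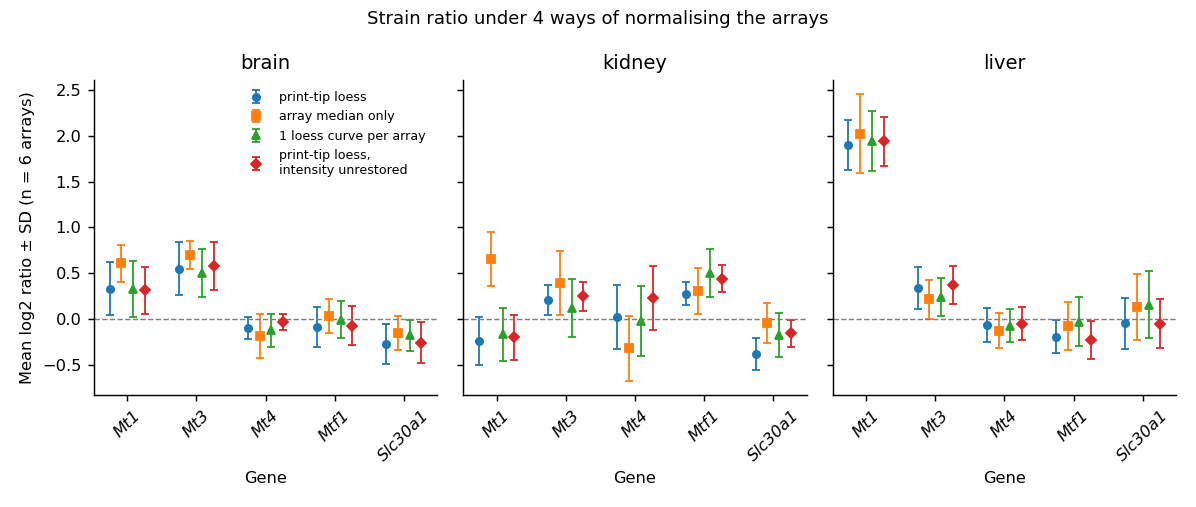
Mean log2 ratio ± SD over 6 arrays (vertical axis) of the 5 measured members in brain, kidney and liver under 4 ways of normalising the arrays. The Mt1 means in liver stay between 1.90 and 2.02, whereas Mt1 in kidney moves from -0.24 with print-tip loess to 0.66 with the array median alone.

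Between tissues, the ratio of Mt1 was lower in kidney than in liver by a difference of -2.14 ± 0.14 (kidney minus liver, log2 scale, ± SE of the fit to 18 arrays) and lower in brain than in liver by -1.57 ± 0.14. Without loess the first was -1.37. The difference between brain and kidney was 0.57 ± 0.14 and turned to -0.05 without loess. For Mt3 the differences were 0.34 ± 0.13 for brain minus kidney, 0.21 ± 0.13 for brain minus liver and -0.13 ± 0.13 for kidney minus liver. Without loess the brain minus liver difference of Mt3 was 0.48 and that of kidney minus liver turned to 0.18. For Mtf1 kidney exceeded brain and liver, with -0.36 ± 0.11 for brain minus kidney and 0.47 ± 0.11 for kidney minus liver. For Slc30a1 they were 0.11 ± 0.12 for brain minus kidney, -0.22 ± 0.12 for brain minus liver and -0.33 ± 0.12 for kidney minus liver. Without loess these were -0.12, -0.28 and -0.17. After loess, arrays of a pair of tissues did not overlap for Mt1 in liver against either other tissue and for Mtf1 in kidney against liver.

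The intensity of a spot, averaged over both strains, describes in which tissue its RNA was abundant, and the choice of members did not use it. Intensities were recovered from the deposited ratios and are estimates that borrow from the other arrays of a tissue, so they are given without a test. Mt3 was brightest in brain. Set against the array median on the log2 scale, its intensity averaged 3.28 ± 0.39 over brain arrays, 0.64 ± 0.28 over kidney arrays and -0.07 ± 0.29 over liver arrays (mean ± SD, n = 6 arrays), which made brain 6.24-fold above kidney and 10.2-fold above liver. The lowest brain array (2.70) lay above the highest kidney array (0.92) and the highest liver array (0.44). Intensities of all brain arrays lay above those of all kidney arrays for 15.9% of spots and above those of all liver arrays for 13.0%.

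Mt1 was bright in all 3 tissues, with 4.83 ± 0.81 in brain, 3.63 ± 0.39 in liver and 3.30 ± 0.25 in kidney. Brain arrays lay between 4.06 and 6.37, above all kidney arrays (3.07 to 3.77) and overlapping the liver arrays (3.12 to 4.30). The liver and kidney arrays overlapped as well. Its brighter channel reached an estimated 39111 on a brain array. Slc30a1 averaged 0.24 ± 0.35 in brain, 0.30 ± 0.15 in kidney and -0.08 ± 0.34 in liver, at median percentiles of 53.6, 61.1 and 41.2. Mtf1 averaged 0.36 ± 0.34, -0.25 ± 0.24 and -0.24 ± 0.51, at median percentiles of 57.2, 38.2 and 30.9. Single liver arrays ran from percentile 16.9 to 63.8 for Slc30a1 and from 13.9 to 67.8 for Mtf1. Mt4 differed by less than 0.03 between the tissue means, at -0.39, -0.39 and -0.37. Each of these spots is compared with itself across tissues, not with the others. In whole tissue, fewer cells of a type and less RNA per cell cannot be told apart.

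**Figure D3:**
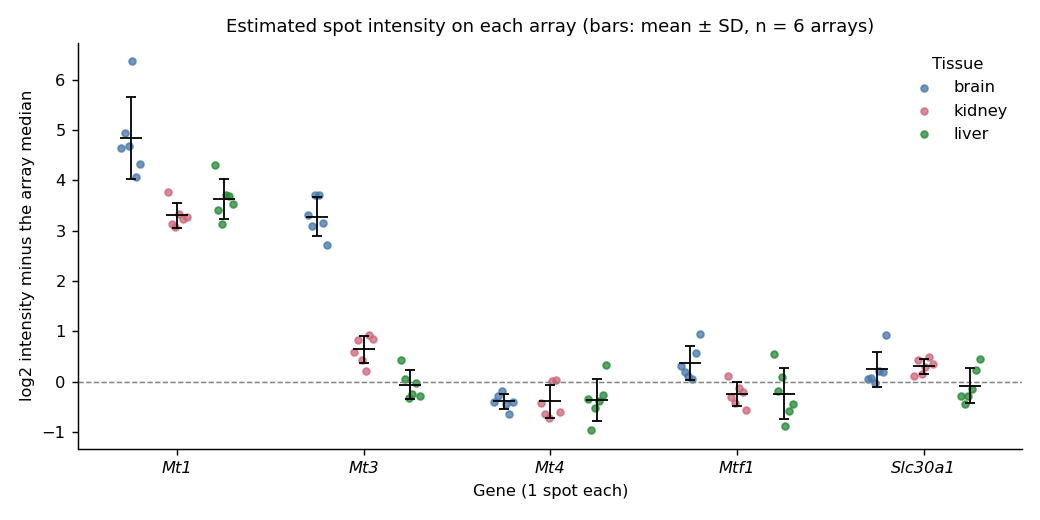
Estimated log2 spot intensity minus the array median (vertical axis) of the 5 measured members on each array, coloured by tissue, with bars for the mean ± SD of 6 arrays. The brain arrays of Mt3 lie between 2.70 and 3.72 and its kidney and liver arrays at 0.92 or below, while the Mt4 means are -0.39, -0.39 and -0.37.

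The other genes of zinc transport and the lists that follow are described by their counts. Of all features 14.1% passed in brain, 39.7% in kidney and 22.9% in liver. Without loess these shares were 17.5%, 64.9% and 24.9%. With 1 loess curve per array they were 14.9%, 32.3% and 26.6%, and with intensities left unrestored 15.0%, 51.8% and 23.0%. The lists were chosen with earlier results known, so adjusted p-values of their genes are descriptions and not independent support. Of 9 further Slc30a genes, which encode zinc exporters of the plasma membrane and of vesicles, 6 were measured. In brain 0 of them passed the threshold, in kidney 0 were higher and 1 lower, and in liver 0 were higher and 1 lower. The medians were -0.03, -0.14 and -0.13, against 0.0038, 0.0037 and 0.0024 over all features. Without loess the first 2 turned to 0.04 and 0.15. With intensities left unrestored 0 were higher and 3 lower in kidney. The lower gene was Slc30a6, a transporter of the Golgi, at -0.504 ± 0.10 in liver (1.42-fold, adjusted p = 0.000330 in limma) and -0.25 ± 0.15 in kidney (adjusted p = 0.0130). Its kidney call ended without kidney array 4 (-0.20) and with 1 loess curve per array (-0.29), and without loess its kidney mean was -0.62. All 6 liver arrays of Slc30a6 lay below 0, from -0.64 to -0.36, and its spot was among the dimmest 25%.

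Of 14 Slc39a genes, the family that carries zinc into the cytosol, 10 were measured. In brain 2 were higher and 0 lower, in kidney 2 higher and 1 lower, and in liver 3 higher and 0 lower, with medians of 0.05, 0.06 and 0.06. In kidney 4 were higher and 2 lower without loess and with intensities left unrestored. Slc39a9 in liver had the largest ratio (0.48 ± 0.18, 1.39-fold, adjusted p = 0.00128 in limma), and all of its 6 arrays lay at 0.29 or more. In kidney Slc39a5, an importer of the basolateral membrane of epithelia, stood at 0.26 ± 0.16 (adjusted p = 0.0116), but at 0.08 with 1 loess curve per array, 0.62 without loess and 0.60 with intensities left unrestored. Slc39a11 stood at 0.23 ± 0.09 (adjusted p = 0.0112 in limma) and at 0.34 without loess or with 1 loess curve per array and 0.63 with intensities left unrestored. Both brain calls, Slc39a5 (0.39 ± 0.39) and Slc39a8 (0.38 ± 0.37), were lost without array 2, 4 or 5 and under each of the 3 other ways of normalising. That of Slc39a5 was also lost without array 1 or 3, and that of Slc39a8 without array 6.

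A list of 10 metal-responsive genes other than metallothioneins, which shares Slc39a10 with the importers, had 9 measured members. In brain 0 were higher and 1 lower, in kidney 2 higher and 6 lower, and in liver 2 higher and 2 lower, with medians of -0.001, -0.25 and -0.10. In kidney Txnrd1, the thioredoxin reductase of the cytosol, was 1.37-fold lower (-0.46 ± 0.13, adjusted p = 0.000183 in limma), although not past the threshold without loess (-0.21), and at -0.23 with intensities left unrestored. Ndrg1, a stress-induced gene, stood at -0.45 ± 0.12 in kidney and turned to 0.498 without loess. Pgf, a placental growth factor, stood at 0.64 ± 0.27 and turned to -0.14. Without loess the kidney counts were 2 higher and 1 lower. In liver Hspa1a, an inducible heat shock protein, was lower (-0.39 ± 0.23, adjusted p = 0.00794 in limma). Gclc, the rate-limiting enzyme of glutathione synthesis and a gene that responds to MTF1, stood at -0.21 ± 0.10 in liver (adjusted p = 0.0346), a call that ended without array 1, 2, 3, 4 or 6 (-0.23 to -0.18). The higher genes in liver were Cebpa, a transcription factor of hepatocytes (0.30 ± 0.18, adjusted p = 0.0139 in limma; not past the threshold without array 3, at 0.23, or without loess, at 0.21), and Ndrg1 (0.21 ± 0.07, adjusted p = 0.0295). The liver call of Ndrg1 was lost without array 3, 4, 5 or 6, and its mean was 0.44 without loess.

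Of 15 copper handling genes 13 were measured, since metallothioneins also buffer copper. In brain 2 were higher and 0 lower, in kidney 3 higher and 1 lower, and in liver 1 higher and 2 lower, with medians of -0.06, 0.06 and 0.01. Without loess 2 were higher and 3 lower in brain, 6 higher and 2 lower in kidney, and 0 higher and 1 lower in liver. With 1 loess curve per array 2 were higher and 2 lower in brain, 3 higher and 2 lower in kidney, and 0 higher and 3 lower in liver. Slc31a2, a copper transporter of endosomes, was higher in brain (0.37 ± 0.04, adjusted p = 0.00477 in limma) and kidney (0.63 ± 0.13, adjusted p = 1.55e-05). Without loess these were 0.11 and -0.07, and with intensities left unrestored the kidney value was 0.37. The Slc31a2 spot was dim, at an estimated log2 intensity of 7.12 in brain and 7.12 in kidney. Sod1, the copper and zinc superoxide dismutase, stood at 0.29 ± 0.17 in brain, -0.49 ± 0.16 in kidney and 0.26 ± 0.19 in liver. Its kidney value turned to 0.501 without loess, and its brain and liver calls were lost without array 3, 4, 5 or 6, that in liver also without array 1, without loess (0.18) and with 1 loess curve per array (0.11).

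Of 15 genes known to be induced by glucocorticoids 14 were measured. In liver 1 was higher and 4 were lower, with a median of -0.18. Tsc22d3, a direct target of the glucocorticoid receptor, was 1.53-fold lower in liver (-0.61 ± 0.29, adjusted p = 0.00127 in limma), and all 6 of its arrays lay at -0.16 or below. Dusp1, a phosphatase of stress signalling, was lower there as well (-0.58 ± 0.42, adjusted p = 0.00738 in limma), with array 2 alone above 0 (0.24). Lcn2, an acute phase protein, was the higher gene in liver (0.26 ± 0.19, adjusted p = 0.0323 in limma), a call lost without array 1, 3, 4, 5 or 6, and 9 of the 14 did not pass there. In brain 0 were higher and 1 lower, and in kidney 4 higher and 5 lower, with medians of -0.05 and -0.04. In kidney Tsc22d3 stood at -0.44 and Klf9 at -0.47, and without loess these were 0.10 and 0.21. The highest there were Fkbp5 (0.40 ± 0.31) and Cdkn1a (0.35 ± 0.19), which without loess were 0.08 and -0.15. Their spots were dim in kidney, at estimated log2 intensities of 7.52 and 6.88. The kidney counts were 3 higher and 2 lower without loess, where the median was 0.09.

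**Figure D4:**
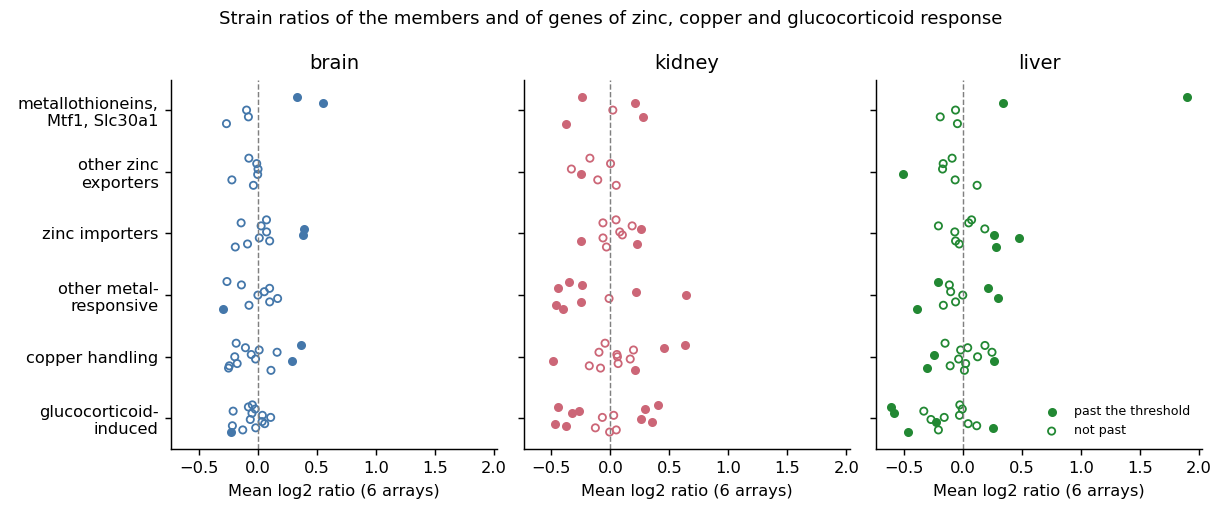
Mean log2 ratio over 6 arrays (horizontal axis) of the 5 measured members and of the genes of 5 lists (rows) in brain, kidney and liver; filled points passed the adjusted threshold and open points did not. Mt1 in liver, at 1.90, lies beyond the listed genes, whose means in liver run from -0.61 to 0.48.

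Mt1 to Mt4 lie side by side on mouse chromosome 8, in the order Mt4, Mt3, Mt2 and Mt1, and 23 other named genes on the arrays start within 1 Mb of the cluster, 7 before Mt4 and 16 after Mt1. In liver 2 of these neighbours were higher and 4 lower, in brain 2 higher and 2 lower, and in kidney 3 higher and 3 lower, with medians of 0.00, 0.01 and -0.01. Of all features 22.9% passed in liver, 14.1% in brain and 39.7% in kidney. The kidney counts depended on the normalisation. Without loess 9 were higher and 5 lower, where 64.9% of all features passed. With intensities left unrestored 9 were higher and 3 lower (51.8%), and with 1 loess curve per array 0 higher and 5 lower (32.3%). Without loess the medians were 0.12 in brain and 0.11 in kidney. Their highest liver mean was 0.36, against 1.90 for Mt1 and -0.06 for Mt4 inside the cluster. Herpud1, a gene of the response to misfolded proteins, was 1.76-fold lower in liver (-0.82 ± 0.16, adjusted p = 2.69e-05 in limma). Ces5a, a carboxylesterase gene, was lower in kidney by a log2 ratio of -0.74 ± 0.18 (adjusted p = 9.04e-06 in limma) and in liver by -0.58 ± 0.18 (adjusted p = 0.000395). Its brain value was -0.33 ± 0.16, a call lost without array 4 or 5 and with 1 loess curve per array (-0.17). The Ces5a spot was dim, at an estimated log2 intensity of 7.48 in kidney and 7.60 in liver, against 7.61 and 7.83 for Slc30a6. The liver mean of Adgrg1 (-0.79 ± 0.92, adjusted p = 0.0380) had array 2 at -2.58 and was -0.44 without it, and the call was lost without array 1, 3, 4 or 6.

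**Figure D5:**
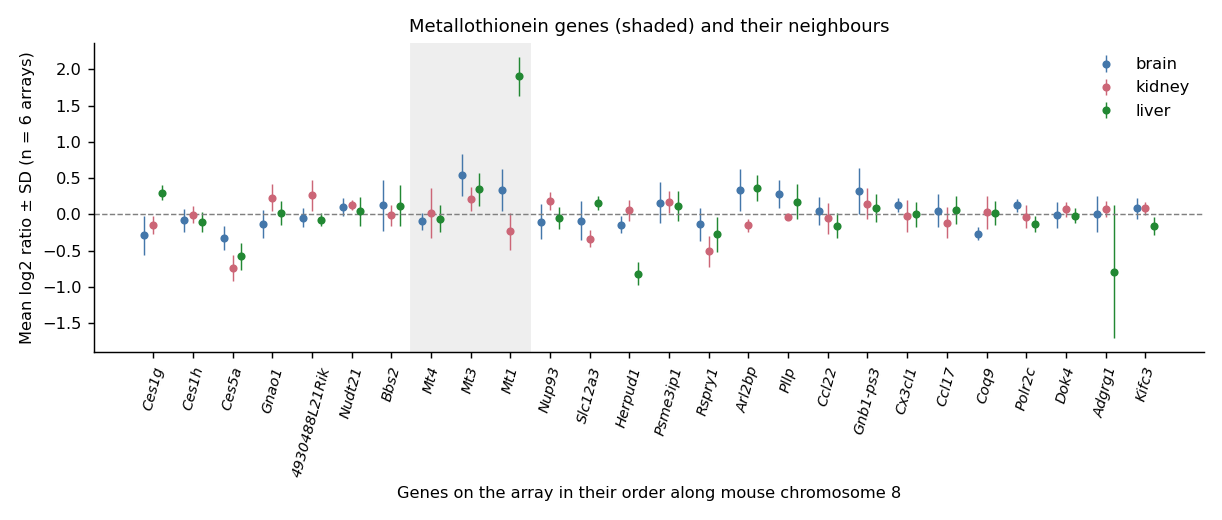
Mean log2 ratio ± SD over 6 arrays (vertical axis) of the 3 measured metallothionein genes (shaded) and of 23 neighbouring genes in their order along mouse chromosome 8, coloured by tissue. Mt1 in liver stands at 1.90, and the highest liver mean among the neighbours is 0.36.

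Across the 18 arrays, the genes whose ratios followed those of Mt1 most closely were Fmo2 (Pearson's r = 0.959), Fth-ps3 (0.945), Rny1 (0.938), Ccl9 (0.928) and Nudt7 (0.926). A total of 9 named genes had r above 0.9. Fmo2, a flavin monooxygenase, had mean ratios of 1.15 (liver), 0.30 (brain) and -0.12 (kidney), and Rny1 of 1.35, 0.37 and -0.03. The genes were picked by their correlation with Mt1 over all 18 arrays, which favours a shared order of the tissue means. That order is therefore not a result. Within the 6 liver arrays the r of Fmo2 with Mt1 was 0.864 and that of Rny1 0.321. The arrays of a tissue share their RNA pools and dye order, and these correlations are descriptions.

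Markers of other cell types were set beside the liver ratio of Mt1. Of 3 measured blood markers 0 were higher and 1 lower in DBA/2J liver, of 4 adipose markers 1 was higher and 0 lower, and of 4 immune cell markers 1 was higher and 0 lower. Of 9 liver markers 1 was higher and 2 were lower, with a median of 0.19. In kidney, after loess, 0 of 8 kidney markers were higher and 5 lower, with a median of -0.34. Among the lower ones Slc12a3 turned from -0.34 to 0.29 without loess. Of all features 10.7% passed as higher and 12.1% as lower in liver, and 19.9% and 19.8% in kidney. The part of the marker differences in the members' ratios was not tested.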

How the data were processed

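The deposited table holds log2 ratios of DBA/2J over C57BL/6J for 23040 spots on 18 arrays. The labels name Spot for quantification and limma's print-tip lowess for normalisation, without versions. The deposited values did not have that property: 100% equalled log2 of a quotient of whole numbers (tolerance 1e-12) and array medians lay between -1.65 and 0.16. They were treated as raw and normalised again, as a departure from the labels, and 1275 spots at 0 on every array were left out. Intensities were recovered by continued fractions (largest 65535), the common factor being estimated from the other arrays of the tissue with an assumed SD of 0.4 (log2). Each spot's intensity, centred on the array median, was then averaged over the arrays of a tissue. Ratios were normalised by print-tip loess (span 0.3, 4 iterations, 48 blocks of 480 spots) on that average, which is the same for all arrays of a tissue. Normalised ratios were averaged per gene (20218 features). Each feature was tested against 0 per tissue in limma 3.58.1 (R 4.3.3), with Benjamini-Hochberg adjustment over all features. The fit was also run on simulated data, whose dye curve followed the same intensity that the loess used. That run therefore cannot check the recovered intensities or the choice to treat the deposited values as raw. Symbols came from the platform annotation, updated by Entrez identifier for 15964 spots through a RefSeq table of GRCm38.p6; 16642 spots had 1 symbol, 134 several and 4989 none. The number of arrays limits the precision.

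The members and gene lists were chosen with earlier results of these data known. The adjusted p-values printed for list genes therefore describe their place among all features and are not independent support. Named genes were all measured members, the 2 highest and 2 lowest past the threshold per list and tissue, the 3 largest among neighbours of the cluster, and the 5 genes most correlated with Mt1. Which of the named list genes are described in words was decided after their values were seen.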

Additional observations from a re-analysis of the deposited data

Results flagged for a closer look

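After loess the kidney and liver arrays of Mt1 lay on opposite sides of 0, with a difference of -2.14 (kidney minus liver, log2 scale), and those of Mtf1 did so in the other order, with 0.47. Neither difference was tested, because the members were proposed with these ratios in view, and that of Mt1 was -1.37 without loess, where all 6 kidney arrays of Mt1 stood above 0 (0.12 to 0.90), as the liver arrays did. For Mt1 in kidney array 3 stood apart at -0.74, and for Mtf1 in kidney array 2 at 0.048. Among the listed genes, single arrays stood apart in liver for Slc39a9 (array 6, 0.81), Slc39a13 (array 6, 0.80), Cebpa (array 3, 0.64), Lcn2 (array 2, -0.11), Dusp1 (array 2, 0.24) and Adgrg1 (array 2, -2.58). Chance flags about 1 in 20 groups, and 58 groups of 6 arrays were examined.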

How the results depend on the processing

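Of 75 member ratios under other settings, 68 moved by less than the SD between arrays. Leaving out the dimmest 25% and fitting single spots cannot move a gene with 1 spot, and these ratios, included in the 68, were unchanged in advance. Only leaving out loess, 1 loess curve per array and unrestored intensities could move a member. Without loess, the kidney ratio of Mt1 reversed to 0.66, that of Mt3 moved to 0.40 and that of Slc30a1 to -0.036. The brain minus kidney difference of Mt1 reversed to -0.045. Features past the threshold numbered 8032 in kidney (13113 without loess; 6563 to 7761 with 1 array left out), 2858 in brain (1319 to 3344 with 1 array left out; 1719, 1319, 1555 and 1577 without array 2, 4, 5 or 6) and 4626 in liver (2929 to 4626, the lowest without array 3). Those differing between tissues went from 4552 to 7113 (brain and kidney), 1480 to 830 (brain and liver) and 3708 to 9288 (kidney and liver) without loess. With 1 loess curve per array, Mtf1 in kidney moved to 0.501 and Slc30a1 to -0.17, and with intensities left unrestored to 0.44 and -0.15. Brightest in brain were 3 members by mean log2 intensity and 4 by percentile. The same replicate numbers in different tissues were not treated as pairing the arrays, and deviations correlated between -0.23 and 0.16. With the replicate block 4220, 1378 and 3434 features differed. Every replicate number occurs in each tissue, so that block cannot change a difference between tissues, only its SE. Genes of the lists past the threshold, summed over tissues, were 63 with the neighbours of the cluster and 47 without them. Without loess these sums were 63 and 41, and without the dimmest 25% they were 49 and 36. Slc39a10 was counted in each list that holds it. Of all features 14.1% passed in brain, 39.7% in kidney and 22.9% in liver, and 17.5%, 64.9% and 24.9% without loess. The equal sums of 63 hide changed calls. Without loess kidney neighbours went from 3 higher and 3 lower to 9 and 5. Kidney metal-responsive genes went from 2 higher and 6 lower to 2 and 1.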
